A study of Mus musculus with 3 samples.

Results

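Isl1 peaks at the genes of the mitochondrial respiratory chain and ATP synthase were taken from the list of Isl1 binding sites in embryonic stem cell (ESC)-derived cardiac progenitor cells (CPCs). A peak was a member when its assigned gene symbol began with Nduf (complex I), with Sdh followed by a, b, c or d (complex II), with Uqcr (complex III), with Cox followed by a digit from 4 to 8 (complex IV) or with Atp5 (complex V, the ATP synthase). This gave 25 of the 14082 distinct peaks, assigned to 16 genes. The same prefixes, with older symbols translated, matched 101 protein-coding genes, so 85 members of the group had no assigned peak. One further gene, Emc8, matched only through an older symbol (Cox4nb), encodes a subunit of a membrane protein complex of the endoplasmic reticulum and was left out.

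Isl1 is a homeodomain protein with LIM domains that marks progenitors of the second heart field, and its binding was mapped by ChIP-Seq, in which DNA pulled down with an antibody is sequenced. The series had 3 samples, of which 2 were Isl1 ChIP replicates (made with an antibody of the Developmental Studies Hybridoma Bank) and 1 was input. All were from CPCs at day 5 of differentiation of a single mouse ES cell line, E14 Tg(Nkx2-5-EmGFP). This line carries a green fluorescent reporter of the early cardiac gene Nkx2-5. No Isl1-deficient or untreated cells were analysed here. The paper describes 2 routes to CPCs, directed differentiation with BMP4, Activin A, VEGF, bFGF and FGF10, and hanging drops. Its ChIP-Seq methods do not name the route used. The list held 1 combined set of positions for both replicates, with no height, score or read number, so the sequencing depth behind a peak is unknown, no spread between replicates can be given and the label of the cells could not be checked against marker genes.

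Complexes I to IV pass electrons from NADH and succinate to oxygen and, with the exception of complex II, pump protons across the inner mitochondrial membrane. Complex V uses the proton gradient to make ATP. The nuclear genes for these subunits are active in nearly all cells, rise further as cardiomyocytes mature, and are known targets of the transcription factors NRF1, the ETS factor GABP, the oestrogen-related receptors (ERR) and YY1, and several complex IV subunits come in a ubiquitous and a heart, muscle, lung or testis isoform.

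The peaks at this group fell into a small promoter set and a larger distal set. The 7 genes with a peak within 1 kb of the transcription start site (TSS) were Ndufaf6, Uqcrfs1, Cox4i1, Cox5a, Cox6a1, Atp5a1 and Atp5g3. Below are the bases just upstream of the TSS at the promoter peaks, which show part of the sequence that these peaks cover. At each gene printed except Cox4i1 the peak midpoint lay downstream of the TSS, and the window lay outside the central 200 bp of the peak. They were read from the mm9 sequence, 5′ to 3′ on the coding strand of the gene, and each printed stretch lay entirely within its peak. The window was 150 bases, except at Cox4i1, where bases in an exon of the divergent neighbour were left out and 112 remained. Atp5a1, whose promoter had the lowest GC content of the 7 (52.0% in TSS ± 500 bp), is not shown. Capitals mark exact matches, on either strand, to the Sp type string GGGCGG, the NRF1 type string GCGCATGCG and the ERR type string TCAAGGTCA.
Ndufaf6, chr4:11003353-11003502 (minus strand): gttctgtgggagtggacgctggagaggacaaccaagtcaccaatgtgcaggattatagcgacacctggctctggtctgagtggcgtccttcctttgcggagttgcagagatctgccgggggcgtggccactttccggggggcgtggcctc
Uqcrfs1, chr13:30637232-30637381 (minus strand): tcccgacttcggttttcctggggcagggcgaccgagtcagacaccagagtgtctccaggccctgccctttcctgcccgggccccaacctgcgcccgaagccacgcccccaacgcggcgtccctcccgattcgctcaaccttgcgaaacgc
Cox4i1, chr8:123192013-123192124 (plus strand): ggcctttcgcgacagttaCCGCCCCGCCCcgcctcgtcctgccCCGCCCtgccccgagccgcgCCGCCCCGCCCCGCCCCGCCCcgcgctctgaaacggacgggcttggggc
Cox5a, chr9:57368889-57369038 (plus strand): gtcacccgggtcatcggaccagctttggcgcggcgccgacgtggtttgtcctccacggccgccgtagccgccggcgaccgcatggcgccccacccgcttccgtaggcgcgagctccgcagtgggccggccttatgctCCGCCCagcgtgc
Cox6a1, chr5:115798991-115799140 (minus strand): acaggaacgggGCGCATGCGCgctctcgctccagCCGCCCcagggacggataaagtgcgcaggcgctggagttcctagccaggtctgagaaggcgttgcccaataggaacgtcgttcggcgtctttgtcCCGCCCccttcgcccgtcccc
Atp5g3, chr2:73749384-73749533 (minus strand): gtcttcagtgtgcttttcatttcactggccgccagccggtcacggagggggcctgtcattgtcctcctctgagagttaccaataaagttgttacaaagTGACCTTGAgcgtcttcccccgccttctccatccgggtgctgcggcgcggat

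For contrast, the same windows are shown for the isoform genes without a peak that pair with Cox4i1, Cox6a1 and Atp5g3. Capitals again mark exact matches, here to the NRF1 type string and to the GATA type string AGATAA.
Cox4i2, chr2:152579759-152579908 (plus strand): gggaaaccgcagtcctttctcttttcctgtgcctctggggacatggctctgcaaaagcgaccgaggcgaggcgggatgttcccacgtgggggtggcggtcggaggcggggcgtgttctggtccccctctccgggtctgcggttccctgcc
Cox6a2, chr7:135349881-135350030 (minus strand): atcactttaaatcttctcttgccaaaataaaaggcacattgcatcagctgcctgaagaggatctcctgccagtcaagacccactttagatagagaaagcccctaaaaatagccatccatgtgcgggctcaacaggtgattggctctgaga
Atp5g1, chr11:95936985-95937134 (minus strand): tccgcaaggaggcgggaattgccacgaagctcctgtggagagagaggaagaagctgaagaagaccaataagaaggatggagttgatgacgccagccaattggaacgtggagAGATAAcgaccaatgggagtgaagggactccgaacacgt
Atp5g2, chr15:102501479-102501628 (minus strand): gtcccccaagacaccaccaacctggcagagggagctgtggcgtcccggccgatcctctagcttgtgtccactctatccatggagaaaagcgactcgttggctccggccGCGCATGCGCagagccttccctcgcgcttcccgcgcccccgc

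The Cox4i1 window had a GC content of 81.2%, with 7 overlapping or neighbouring matches to the Sp type string, and the Cox4i2 window had 66.7% with none. Cox6a1 had 66.7% GC and 17 CpG dinucleotides, and its heart and muscle isoform Cox6a2 had 45.3% GC and 1 CpG. The Atp5g3 window, with 56.7% GC and 9 CpG, lay between those of its copies without a peak, Atp5g1 with 52.7% GC and 8 CpG and Atp5g2 with 66.7% GC and 14 CpG. The Cox5a window held 74.0% GC and 23 CpG. Ndufaf6, with 61.3% GC and 8 CpG, and Uqcrfs1, with 68.0% GC and 15 CpG, held none of the strings in this window.

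The group as a whole had a smaller share of genes with a peak than protein-coding genes in general. An assigned peak at any distance was found for 16 of 101 genes, or 15.8% (95% Wilson interval 9.99 to 24.2%), against 39.1% of the 21031 protein-coding genes. A peak within 1 kb of the TSS was found for 7 of 101 genes, or 6.93% (3.40 to 13.6%), against 24.2% of all protein-coding genes. The intervals cover counting error over genes only. Both lay below the value over all genes. Genes are not replicates of a condition, so these shares are descriptions and were not tested. The assignment gives each peak to a single gene, and 5 further members had their TSS within 1 kb of a peak that was assigned to a neighbour. Counting any peak that overlapped TSS ± 1 kb, 12 of the 99 members placed in the mm9 annotation had one, or 12.1%, against 28.2% of all annotated protein-coding genes.

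Among the genes matched by prefix, the share with a peak ran from 6.25% in complex I to 38.9% in complex IV when every assigned peak was counted. Complex I, the NADH dehydrogenase and the largest of the chain, had a peak at 3 of 48 genes, or 6.25% (interval up to 16.8%). Complex II, succinate dehydrogenase, had 1 of 8, or 12.5% (2.24 to 47.1%). Complex III, the cytochrome bc1 complex, had 3 of 8, or 37.5% (13.7 to 69.4%). The Uqcr prefix leaves out its subunit cytochrome c1 (Cyc1), which is read with a further list below and had a peak 246 bp from its TSS. Adding Cyc1 would raise the share of complex III above that of complex IV, so their order depends on the prefix rule. Complex IV, cytochrome c oxidase, had 7 of 18, or 38.9% (20.3 to 61.4%), and complex V had 2 of 19, or 10.5% (2.94 to 31.4%). The interval of complex I did not reach that of complex IV, and it lay below 39.1%, as did that of complex V, while those of complexes II, III and IV included that value. Near the TSS the order was less clear. Within 1 kb the counts were 1 of 48 for complex I, 0 of 8 for complex II (with a Wilson upper limit of 32.4%, and of 37.5% if a count of 0 is taken to allow 3 genes), 1 of 8 for complex III, 3 of 18 for complex IV and 2 of 19 for complex V, and the interval of complex I, 0.369 to 10.9%, overlapped that of complex IV, 5.84 to 39.2%. Over all protein-coding genes the share within 1 kb was 24.2%. With any peak that overlapped TSS ± 1 kb counted, whatever its assignment, the share over all annotated genes was 28.2%. By complex it was 2 of 46 in I, 1 of 8 in II, 2 of 8 in III, 3 of 18 in IV and 4 of 19 in V. So counted, complex V (21.1%, 8.51 to 43.3%) lay above complex IV (16.7%). By assigned peaks at any distance, structural subunits, with 14 of 85 genes (16.5%), and assembly factors, with 2 of 13 (15.4%), had like shares.

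**Figure D1:**
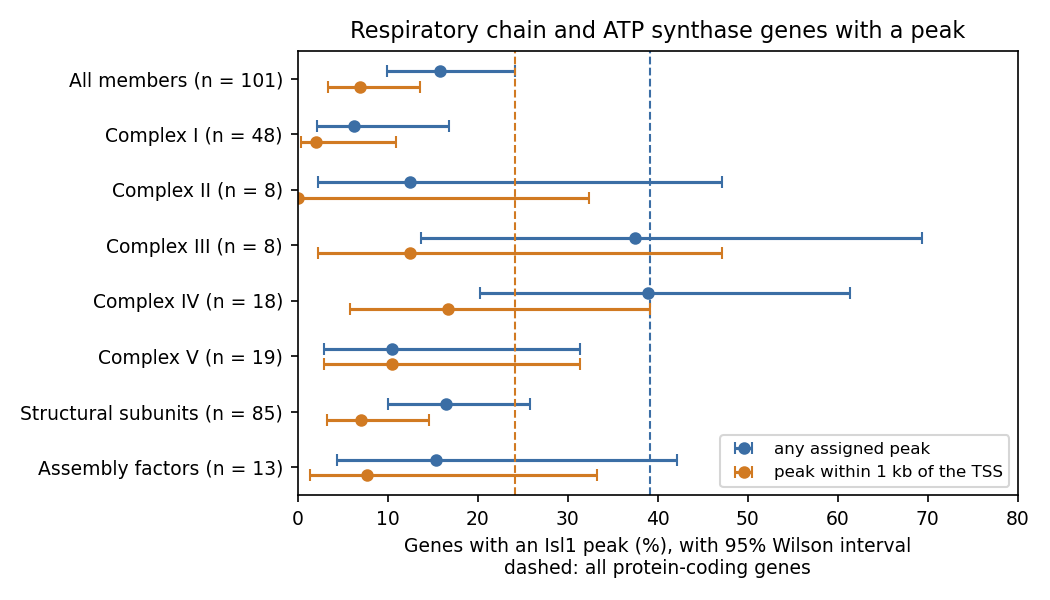
Share of genes with an assigned Isl1 peak (blue) and with a peak within 1 kb of the TSS (orange), in percent on the horizontal axis, for all 101 members, each complex, structural subunits and assembly factors, with 95% Wilson intervals as bars and the value over all protein-coding genes as a dashed line of the same colour. The blue interval of complex I ends at 16.8%, below the 39.1% of all genes, whereas the point of complex IV lies at 38.9%.

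In complex I no structural subunit had a promoter peak. Of the 39 structural subunits, 2 had a distal peak and 0 had a peak within 1 kb. The Wilson upper limit of the latter share is 8.97%, and 3 genes of 39 would be 7.69%. The 7 core subunits in the list, which hold the flavin and the iron-sulfur clusters (among them Ndufs1, Ndufv1 and Ndufv2), had no assigned peak. The promoter peak of complex I belonged to Ndufaf6, an assembly factor needed for the early membrane part of the complex. It was 623 bp wide on chromosome 4 from 11002917 to 11003540, centred 124 bp downstream of the TSS in a coding exon (the gene is named 2310030N02Rik in the mm9 annotation). A second Ndufaf6 peak of 2400 bp lay 21201 bp downstream of the TSS in an intron, from 10980951 to 10983351.

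Ndufs4, an accessory subunit whose loss is a known cause of complex I deficiency, had a narrow peak of 377 bp on chromosome 13 from 115199047 to 115199424, 20933 bp upstream of its TSS and between genes. Ndufa4 had the most peaks of any member. Its 4 peaks lay on chromosome 6 between 11698266 and 11784098, all intergenic, at 74485, 77411, 109947 and 158534 bp downstream of the TSS, with widths of 2274, 1359, 827 and 1292 bp. Ndufa4 was first assigned to complex I and is now regarded as a subunit of complex IV. Counted there with Ndufa4l2, it gave 8 of 20 genes (40.0%) for complex IV and 2 of 46 (4.35%) for complex I.

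The other 45 genes of complex I had no assigned peak. Among them were Ndufa1, Ndufa2, Ndufa3, Ndufa5, Ndufa6, Ndufa7, Ndufa8, Ndufa9, Ndufa10, Ndufa11, Ndufa12, Ndufa13, Ndufa4l2, Ndufab1, Ndufb1, Ndufb2, Ndufb3, Ndufb4, Ndufb4c, Ndufb5, Ndufb6, Ndufb7, Ndufb8, Ndufb9, Ndufb10, Ndufb11, Ndufc1, Ndufc2, Ndufs5, Ndufs6 and Ndufv3, the 7 core subunits, and the assembly factors Ndufaf1, Ndufaf2, Ndufaf3, Ndufaf4, Ndufaf5, Ndufaf7 and Ndufaf8. Ndufa11, which helps to hold the membrane arm together, was the only gene among them whose annotated TSS lay within 1 kb of a peak. That peak, 727 bp wide on chromosome 17 from 56855896 to 56856623, was assigned to Vmac at a distance of 85 bp, and its edge was 562 bp from the Ndufa11 TSS.

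Complex II links the citric acid cycle to the chain. Its 4 catalytic and membrane subunits, Sdha, Sdhb, Sdhc and Sdhd, had no assigned peak, nor did the assembly factors Sdhaf1, Sdhaf2 and Sdhaf4. The assembly factor Sdhaf3, which protects the iron-sulfur subunit, had a peak of 1089 bp in an intron, 33701 bp downstream of its TSS, on chromosome 6 from 6939175 to 6940264 (Acn9 in the mm9 annotation). The TSS of Sdhaf2, needed to attach flavin to Sdha, lay inside a 1104 bp peak on chromosome 19 from 10599351 to 10600455 that was assigned to Cpsf7.

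Among the Uqcr genes of complex III the promoter peak was that of Uqcrfs1, the Rieske iron-sulfur protein, which hands electrons on to cytochrome c1. It was 1023 bp wide on chromosome 13 from 30636499 to 30637522, 175 bp downstream of the TSS and in a coding exon. Uqcr11, a small subunit of the complex, had a peak of 836 bp on chromosome 10 from 79872692 to 79873528. It lay 3544 bp upstream of the Uqcr11 TSS but inside an intron of Tcf3, which encodes a basic helix-loop-helix factor. Uqcrb, which contributes to the ubiquinone site, had a peak of 858 bp on chromosome 13 from 66816518 to 66817376 that was 189339 bp from its TSS. In the mm9 annotation another gene model, Vmn2r-ps106, had its TSS 29056 bp from that peak, so the assignment to Uqcrb depends on the gene set used. Uqcr10, Uqcrc1, Uqcrc2, Uqcrh and Uqcrq had none. The edge of a 1520 bp peak assigned to Lrrc41, on chromosome 4 from 115747861 to 115749381, lay 185 bp from the TSS of Uqcrh, the hinge protein that binds cytochrome c1.

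Complex IV held 11 of the 25 peaks. Its 3 promoter peaks were all at ubiquitous or single isoforms. Cox4i1, the regulatory subunit that binds ATP, had a peak of 1251 bp on chromosome 8 from 123191493 to 123192744. Its midpoint was 7 bp upstream of the TSS, the closest of all members. The TSS of the divergent gene Emc8 (Cox4nb in the annotation) was inside the same peak, so the peak cannot be given to one of the pair by position. Cox5a, which interacts with the matrix side of the complex, had a peak of 963 bp in its intron, 224 bp downstream of the TSS, on chromosome 9 from 57368782 to 57369745. Cox6a1, the liver-type or ubiquitous isoform of subunit 6a, had a peak of 853 bp on chromosome 5 from 115798394 to 115799247, 144 bp downstream of the TSS.

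The other 4 genes of complex IV had peaks only farther away. Cox7c, a small subunit at the membrane, had 3 intergenic peaks on chromosome 13 at 201774 bp downstream and 1226076 and 1315285 bp upstream of its TSS, with widths of 2149, 800 and 688 bp. The upstream ones were the most distant of all member peaks. In the mm9 annotation another gene model, Gm8526, had its TSS closer to both, at 1205715 and 1116506 bp. Their assignment to Cox7c thus depends on the gene set used. Cox7b2, a testis isoform of subunit 7b, had 3 peaks on chromosome 5 at 8540 bp upstream and 22194 and 159320 bp downstream, of 1817, 1223 and 1275 bp. Cox6b2 and Cox8c, the testis isoforms of subunits 6b and 8, had 1 peak each. The Cox6b2 peak, 1225 bp wide on chromosome 7 from 4706745 to 4707970, lay 2661 bp upstream of the TSS in an intron of Fam71e2. The Cox8c peak, 496 bp wide on chromosome 12 from 104130873 to 104131369, lay 6395 bp upstream and had the lowest GC content of the member peaks, 48.5% in its central 200 bp. Cox4i2, Cox5b, Cox6a2, Cox6b1, Cox6c, Cox7a1, Cox7a2, Cox7a2l, Cox7b, Cox8a and Cox8b had no assigned peak.

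Complex V had promoter peaks at a subunit of the catalytic head and at a gene for the membrane ring. Atp5a1 encodes the alpha subunit of the catalytic head. It had a peak of 920 bp on chromosome 18 from 78012411 to 78013331 whose midpoint was in a UTR, 364 bp downstream of the TSS, and a second peak of 999 bp, 2265 bp upstream, from 78009743 to 78010742. Atp5g3 encodes a copy of subunit c, which forms the rotating membrane ring. It had a peak of 910 bp in an intron, 184 bp downstream of the TSS, on chromosome 2 from 73748744 to 73749654. The other 17 genes, among them the catalytic beta subunit Atp5b, had no assigned peak. They were Atp5b, Atp5c1, Atp5d, Atp5e, Atp5g1, Atp5g2, Atp5h, Atp5j, Atp5j2, Atp5k, Atp5l, Atp5md, Atp5mpl, Atp5o, Atp5pb, Dmac2 and Dmac2l, the last a pair that the prefix reached through older symbols. This pair was not classed as subunits of the enzyme, and without it complex V had a peak at 2 of 17 genes (11.8%, 3.29 to 34.3%). The TSS of Atp5h, a subunit of the peripheral stalk, lay inside a 938 bp peak on chromosome 11 from 115281205 to 115282143 assigned to Kctd2.

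**Figure D2:**
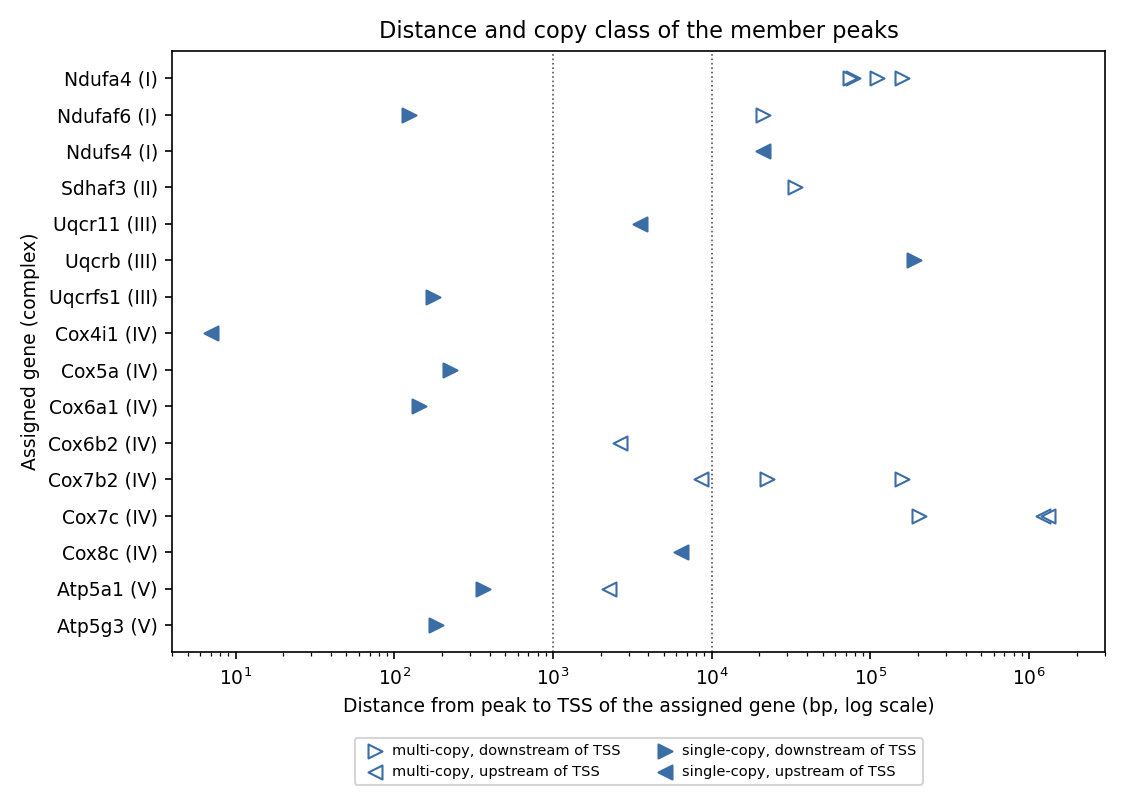
Distance from each of the 25 member peaks to the TSS of its assigned gene, in bp on a log scale, with the gene and its complex on the vertical axis. Filled triangles are single-copy and open triangles multi-copy peaks, pointing left for upstream and right for downstream, and dotted lines stand at 1 and 10 kb. All 7 peaks within 1 kb are filled, and 11 of the 13 peaks beyond 10 kb are open.

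The promoter peaks lay in single-copy sequence and most of the distal peaks in repeated sequence. Copy number was the median number of times that the 31-base words of the central 200 bp occurred in mm9, and a median of at least 2 was called multi-copy. Reads that lie wholly in such sequence may fit several places. Placement at the actual read length, and the flanks of the peaks, were not examined. None of the 7 promoter peaks was multi-copy, against 2.62% of all peaks within 1 kb. Of the 5 peaks at 1 to 10 kb, all upstream, 3 were multi-copy, and of the 13 peaks beyond 10 kb, 11 were (84.6%, against 81.2% of all peaks beyond 10 kb). The 2 single-copy distal peaks were those of Ndufs4 and Uqcrb. Over all members 14 of 25 peaks were multi-copy, or 56.0% (37.1 to 73.3%), against 46.5% of all 14082 peaks. Among the multi-copy peaks, those of Ndufa4 reached median copy numbers of 1553 and 2170, those of Cox7b2 lay between 1094 and 1554, and the upstream Atp5a1 peak had 6.50.

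Of the 16 genes, 11 had a single-copy peak and 5 (Ndufa4, Sdhaf3, Cox6b2, Cox7b2 and Cox7c) had multi-copy peaks alone. Over the group 10.9% of genes had a single-copy peak (6.19 to 18.5%), against 28.7% of all protein-coding genes. By complex, such a peak was found for 2 of 48 genes in complex I (4.17%), 0 of 8 in complex II, 3 of 8 in complex III (37.5%), 4 of 18 in complex IV (22.2%) and 2 of 19 in complex V (10.5%). Counted this way complex III had the largest share and complex II the smallest, and the intervals of complexes I (1.15 to 14.0%) and IV (up to 45.2%) overlapped, so the order of the complexes depends on the multi-copy peaks. In size the member peaks were like the rest, with a median width of 999 bp against 947 bp over all peaks. The 7 promoter peaks were 623 to 1251 bp wide with a median of 920 bp, against 1050 bp for all peaks within 1 kb. The share within 1 kb of a TSS was 28.0% (14.3 to 47.6%), against 38.5% of all peaks.

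Ubiquitous and tissue-restricted isoforms were set side by side because the heart replaces several ubiquitous subunits as it matures. Cox4i1 had a promoter peak and the lung-type, oxygen-responsive isoform Cox4i2 had none. Likewise Cox6a1 had a promoter peak and the heart and muscle isoform Cox6a2 had none. The heart and muscle isoforms Cox7a1 and Cox8b had no assigned peak, but neither did their ubiquitous partners Cox7a2 and Cox8a. Cox6b1 and Cox7b had none while their testis partners Cox6b2 and Cox7b2 had only multi-copy peaks. The testis isoform Cox8c had a single-copy peak, 6395 bp from its TSS, and its partner Cox8a had none. Of the genes for identical mature subunit c, Atp5g3 had a peak and Atp5g1 and Atp5g2 did not. Promoter composition moved with this pattern in part. The CpG ratio (observed over expected CpG in TSS ± 500 bp) was 0.972 at Cox4i1 and 0.379 at Cox4i2, and 0.962 at Cox6a1 and 0.266 at Cox6a2. Cox7a1 had 0.258 and Cox8b 0.245, against 0.765 at Cox7a2 and 0.693 at Cox8a, which lacked a peak too. The subunit c genes were alike, with 0.812 at Atp5g3, 0.668 at Atp5g1 and 0.746 at Atp5g2. The part of promoter composition in the difference between isoforms was not tested.

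Promoter GC content was examined because Isl1 promoter peaks in the list lay in GC-rich DNA. The central 200 bp of the 7 member peaks within 1 kb held 71.0 to 79.5% GC, against a median of 74.0% for all peaks within 1 kb. All protein-coding genes had a median of 55.5% GC in TSS ± 500 bp, and those with a peak within 1 kb had 64.2%. The member genes, at 56.5%, were close to genes in general, and their 7 genes with a promoter peak had a median of 60.1%, from 52.0% at Atp5a1 to 72.5% at Cox4i1. Among genes with 55 to 65% GC, where 60 of the 99 placed members fell, 5 members had a peak within 1 kb, or 8.33% (3.61 to 18.1%), against 29.1% of all genes in that range. Counting any peak that overlapped TSS ± 1 kb, whatever its assignment, 8 did, or 13.3% (6.91 to 24.2%), against 33.4%. The members in this range had a median of 58.1% GC and all genes in it 59.4%. Between 45 and 55% GC, 1 of 35 members had one, or 2.86%, against 6.57%. Above 65% only 3 members were found, and 1 of them (Cox4i1) had a peak within 1 kb, against 77.4% of all genes. With overlap counted, it was 2 of 3 (Cox4i1 and Sdhaf2), against 84.3%. The intervals of the members included the value of all genes between 45 and 55% and above 65%, but not between 55 and 65%. The part of GC content in the share of the group was not tested. With members and background both limited to promoters of at least 55% GC and a CpG ratio of at least 0.6, the shares within 1 kb were 6 of 58 (10.3%, interval 4.83 to 20.8%) and 49.7%, and with overlap counted they were 10 of 58 (17.2%, interval 9.64 to 28.9%) and 55.3%. These limits did not match GC content between the 2 sets. Before the CpG limit, 3 members and 2952 of all genes had at least 65% GC, the range where 77.4% of all genes had a peak within 1 kb.

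**Figure D3:**
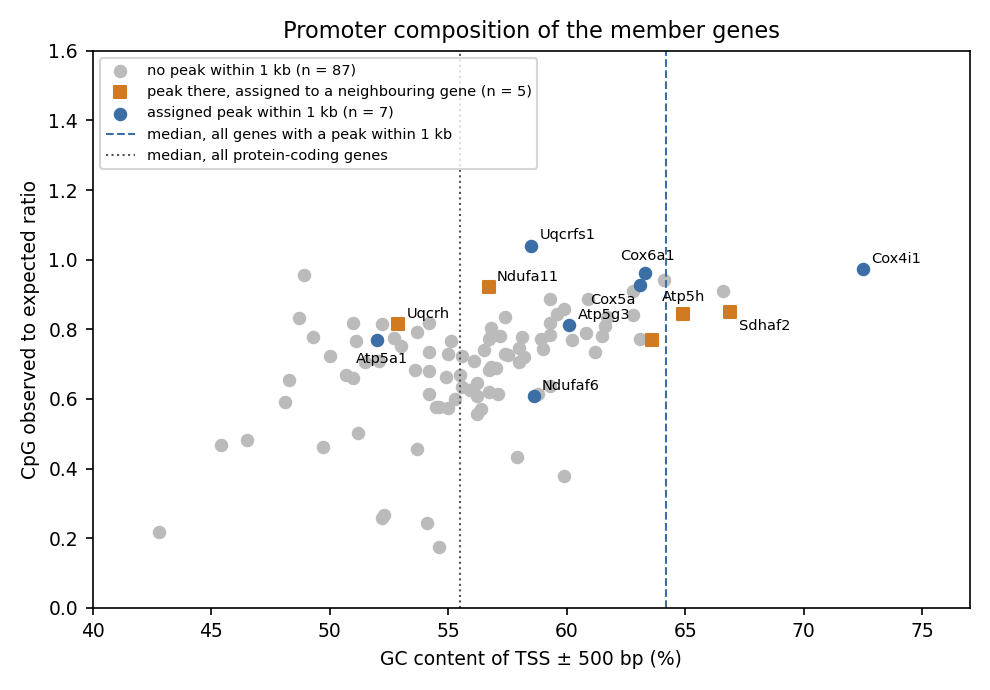
GC content (percent) and CpG observed to expected ratio of TSS ± 500 bp for the 99 member genes placed in the mm9 annotation, with genes that have an assigned peak within 1 kb in blue, those with such a peak assigned to a neighbour in orange and the others in grey. Most members sit near the dotted median of all protein-coding genes (55.5%) and left of the dashed median of all genes with a promoter peak (64.2%), and Cox4i1 has the highest GC content.

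Sequence strings of factors known for these genes were sought in the peaks, on both strands. The NRF1 type string GCGCATGCG was in the centre of 0 of 25 member peaks and in the whole of 1, that of Cox6a1, against 0.327% of the centres and 1.95% of the whole sequences of all peaks. The ERR type string TCAAGGTCA was likewise in the whole of 1 peak only, that of Atp5g3, against 0.632% of all peaks. Both lie in the upstream windows printed above. The ETS type string CCGGAAG was in the centre of 2 peaks (Cox4i1 and a distal Ndufa4 peak, 8.00% against 9.21% of all peaks) and in the whole of 9 (36.0%, against 23.5% of all peaks). The 9 were multi-copy peaks of Ndufa4, Sdhaf3 and Cox7b2 and single-copy peaks of Uqcr11, Cox4i1, Cox6a1 and Atp5a1. The Sp type string GGGCGG was in the centre of 14 peaks (56.0%, against 42.0%), 5 of them among the 7 promoter peaks, where 65.7% of all peaks within 1 kb held it. Of the 14, 7 were multi-copy peaks. The YY1 type string AAGATGGCG was in the centre of 5 peaks (20.0%, against 14.9%). Of these, 4 were multi-copy peaks, assigned to Ndufa4, Sdhaf3, Cox7b2 and Cox7c, and the other was the Atp5a1 promoter peak. Over all peaks the string was in 30.5% of multi-copy and 1.26% of single-copy centres.

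The LIM-homeodomain type strings CTAATGG and CTAATTG, of the kind Isl1 binds, were in none of the 25 member peaks, whether the centre or the whole peak was read. They were rare in the list, in 0.412% of all centres and 5.00% of whole peaks. The GATA type strings AGATAA and TGATAA were in 0 centres and in 6 whole peaks (24.0%, against 25.2% of all peaks). A match is a description of these letters and not of binding.

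The strings of NRF1, GABP and YY1 were found in a larger share of the promoters of this group than of all promoters. In the RefSeq promoters of GRCm38 (250 bases before to 50 after each listed start), 83 members were matched. The NRF1 type string was in 12.0% of them, against 2.71% of 16853 matched protein-coding genes, the ETS type in 26.5% against 13.3%, the YY1 type in 10.8% against 2.21%, and the Sp type in 48.2% against 50.7%. Of the 79 matched members without a peak within 1 kb, 9 held the NRF1 type, 21 the ETS type and 9 the YY1 type string. Only 4 members with a promoter peak were matched, too few to compare.

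Genes that work with the chain were read from 4 further lists. Over all protein-coding genes 39.1% had an assigned peak and 24.2% had one within 1 kb. Assembly factors and electron carriers outside the prefixes had a peak at 8 of 42 genes (19.0%), 5 of them within 1 kb (11.9%, interval 5.19 to 25.0%). The 5 were Atpaf1 and Tmem70, which assemble ATP synthase, Cox20, which assembles complex IV, Ttc19, which acts on complex III, and Cyc1, the cytochrome c1 that takes electrons from Uqcrfs1. The Cyc1 peak was 1087 bp wide and 246 bp from the TSS. Of the 8 Uqcr genes of complex III, Uqcrfs1 was the only 1 with an assigned peak within 1 kb. Lrpprc had a peak 11989 bp upstream, and Nubpl and Tmem126b, both complex I assembly factors, had only distal multi-copy peaks.

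Citric acid cycle genes had a peak at 7 of 19 (36.8%, against 39.1% of all protein-coding genes), 5 of them within 1 kb (26.3%, interval 11.8 to 48.8%, against 24.2%). The 5 were Cs (citrate synthase, 233 bp), Dlat (of the pyruvate dehydrogenase complex, 271 bp), Idh2 (147 bp), Idh3a (107 bp) and Sucla2 (126 bp), all downstream of the TSS and all single-copy. Suclg1 and Suclg2, the other subunits of succinyl-CoA ligase, had only distal peaks. Regulators of mitochondrial genes had a peak at 9 of 17 (52.9%), 5 of them within 1 kb (29.4%, interval 13.3 to 53.1%). These were Nrf1, Gabpb1 (a subunit of GABP), Esrra (ERR alpha), Yy1 and the coactivator Ppargc1b. The mitochondrial DNA polymerase Polg had a peak 1399 bp from its TSS and the mitochondrial RNA polymerase Polrmt had peaks at 6658 and 11076 bp, while Esrrg and Ppargc1a had distal peaks only. The other 8 regulators in the list, Gabpa, Gabpb2, Esrrb, Pprc1, Tfam, Tfb1m, Tfb2m and Polg2, had no assigned peak. Of the carriers and pores, the outer membrane channels Vdac1 and Vdac3 had a promoter peak, 2 of 7 genes (28.6%, interval 8.22 to 64.1%, against 24.2%).

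The ribosomal protein genes, which are likewise active in nearly all cells, served for comparison. Those of the mitochondrial ribosome had a peak within 1 kb at 5 of 78 genes (6.41%, interval 2.77 to 14.1%), much like the 6.93% of the respiratory chain group, and those of the cytosolic ribosome at 13 of 88 (14.8%, interval 8.84 to 23.7%). Neither these nor the 4 related lists had an interval apart from that of the respiratory chain and ATP synthase genes within 1 kb.

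**Figure D4:**
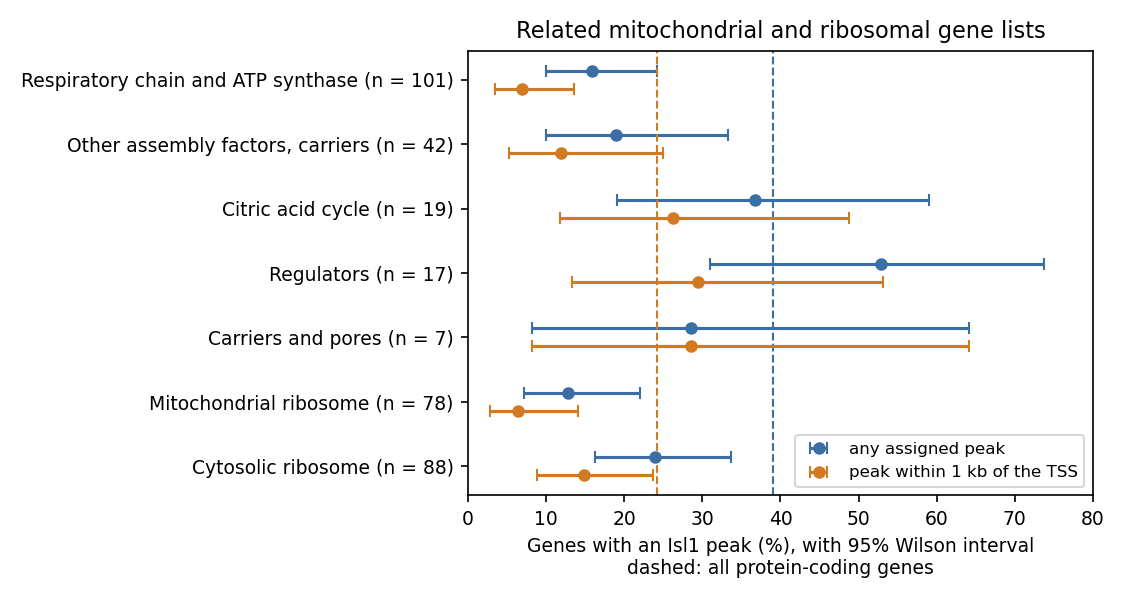
Share of genes with an assigned Isl1 peak (blue) and with a peak within 1 kb of the TSS (orange), in percent with 95% Wilson intervals, for the respiratory chain and ATP synthase genes, the 4 related lists and the ribosomal protein genes, with dashed lines at the values over all protein-coding genes. Within 1 kb the respiratory chain group lies at 6.93% and the mitochondrial ribosome at 6.41%, whereas the citric acid cycle (26.3%) and the regulators (29.4%) lie near the 24.2% of all genes.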

How the data were processed

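ChIP-Seq had been done on 2 Isl1 ChIP replicates and 1 input. The authors mapped reads to mm9 with bowtie2, removed duplicates with Picard 1.136, called peaks with MACS14 without a model, dropped blacklisted peaks and kept areas common to both replicates with bedtools 2.15. The deposited table gives positions and distances to the TSS in bp, assigned with HOMER, and holds 14165 lines, of which 14082 are distinct. Whether its starts count from 0 or 1 is not stated.

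Members were chosen by symbol prefix. Every gene with a member peak is named. Some other genes that the rules select are not reported here. The group, the lists, the strings and the tests were chosen with earlier results of these data known. Gene classes came from RefSeq (GRCm38.p6, names and protein-coding genes with a curated mRNA alone) and positions from the mm9 sequence and GENCODE vM1. Of the 101 members 99 were matched to that annotation. Shares carry 95% Wilson intervals, and no test was possible with 1 list and no score. Calculations used Python 3.11.15, NumPy 2.4.6, pandas 2.3.3, SciPy 1.17.1 and Numba 0.67.0 and were tested on simulated data. Alternatives were structural subunits alone, a width of at least 500 bp, single-copy peaks, other distances, the mm9 annotation, merged peaks and whole peaks. Counting Ndufa4 with complex IV, single-copy peaks by complex and the CpG-rich promoters were added after seeing the data.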

Additional observations from a re-analysis of the deposited data

How the results depend on the processing

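Of the 47 alternative values of 16 results, 39 stayed within the counting interval of the reported value (the interquartile range for the width) and 8 moved beyond it. The intervals of the small sets are wide (2.24 to 47.1% for complex II), so staying within them is a weak check. Complex IV, for example, stayed within its interval while falling from 38.9% to 22.2% with single-copy peaks alone. Limiting peaks to 1 kb of the TSS moved the share of genes with a peak to 2.08% in complex I, 0% in complex II, 12.5% in complex III and 16.7% in complex IV. Structural subunits alone, and single-copy peaks alone, gave 0% in complex II, where the only peak is a multi-copy peak of an assembly factor. Reading the whole peak in place of its centre moved the ETS type string to 36.0% and the GATA type string to 24.0% of member peaks, since more bases were read.

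Replicates were not left out in turn, as the deposited positions are those of both together. No paired analysis was possible because the list carries no value for a single replicate. Peak height and library depth are unknown, so a missing peak does not show that Isl1 was absent. Multi-copy peaks depend on how reads that fit several places were handled.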
